A study of Mus musculus with 18 samples.

Results

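The genes described here encode chromatin proteins that silence repeats and imprinted genes, together with demethylases that act on the same histone mark. They are *Mphosph8*, *Tasor* and *Pphln1* for the HUSH complex, *Morc2a*, *Morc3*, *Smchd1*, *Resf1*, and the demethylase genes *Kdm4a*, *Kdm4b* and *Kdm4c*. They were chosen by name, through the Entrez identifier of each row, and are 10 of the 24100 genes in each of the 2 count tables of the study. Each had 1 row in both tables, and all 10 passed the filter on low counts in both.

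RNA was measured in C3H/10T1/2 (CCL-226) mouse mesenchymal progenitor cells (MPCs), an established cell line. *Atrx* WT cells were an isogenic line that received the vector for Cas9 and GFP with no sgRNA. The *Atrx* KO lines were sg5 (clone G7) and sg6 (clone B10), each grown from a single GFP-sorted cell after transient transfection with the vector carrying 1 sgRNA against *Atrx*. Each line had 3 polyA-selected and 3 rRNA-depleted RNA-seq libraries, which makes 18 in all. Each sgRNA is represented by 1 clone, so the loss of *Atrx* and whatever else differs between a clone and WT cannot be told apart, and both comparisons share the WT libraries. Nothing states that the 3 libraries of a line came from separate cultures, so a p-value measures only the spread between these libraries, which may be technical.

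The HUSH complex is assembled on the scaffold protein TASOR. MPP8, the product of *Mphosph8*, reads H3K9me3 through its chromodomain, and periphilin, the product of *Pphln1*, binds RNA. HUSH works with the methyltransferase SETDB1 and the ATPase MORC2 and is known for silencing young L1 elements and integrated retroviruses. MORC3 and RESF1 take part in silencing endogenous retroviruses, SMCHD1 in X inactivation and at imprinted clusters, and the KDM4 enzymes remove methyl groups from H3K9 and H3K36. ATRX itself is a remodeller that deposits histone H3.3 with DAXX at heterochromatin.

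Total counts of the polyA libraries lay between 27544833 and 80772108 for WT, between 161036799 and 235346363 for sg5 and between 58918732 and 71896907 for sg6, so every sg5 library was deeper than all others of that kind. Over the rRNA-depleted libraries they lay between 20135336 and 33187136. Levels are given as CPM, counts scaled to a common library size after TMM normalization. *Atrx* fell in both clones, from 300.3 ± 26.0 CPM to 127 ± 12.2 CPM for sg5 and 131 ± 9.68 CPM for sg6 (mean ± SD, n = 3, polyA), with adjusted p-values of 5.04e-05 and 5.15e-05. Its rRNA-depleted level was 215 ± 20.2, 82.1 ± 26.4 and 86.6 ± 12.7 CPM. In the polyA libraries the 10 mesenchymal markers, all with counts, summed to between 20412 and 23090 CPM in WT, 23350 and 23968 CPM in sg5, and 28467 and 31166 CPM in sg6, so the lines did not overlap. Among them *Thy1* was at 0.997 ± 0.17 CPM in WT, 0.307 ± 0.06 CPM in sg5 and 154, 128 and 119 CPM in the sg6 libraries. *Twist2* went the other way from the sums, at 6.57 ± 0.90, 4.61 ± 0.54 and 3.49 ± 0.40 CPM in WT, sg5 and sg6. Most of each sum came from *Col1a1*, *Col1a2*, *Col3a1* and *Vim*, at 5719, 6229, 3045 and 4899 CPM in WT. The 3 epithelial markers summed to between 2.54 and 4.86 CPM in WT, 0.833 and 1.62 CPM in sg5, and 0.296 and 0.578 CPM in sg6, and *Cdh1* fell in both clones (adjusted p = 0.00668 and 0.000307). Sums of the 3 leukocyte markers stayed at or under 5.47 CPM and of the 3 endothelial markers at or under 0.767. In the rRNA-depleted libraries the mesenchymal sums of sg5 (8547 to 11406 CPM) and sg6 (9009 to 11930 CPM) overlapped, above those of WT (6487 to 8143 CPM). The part of these marker differences in the values below was not tested.

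*Mphosph8* and *Tasor* were the members that rose in the KO lines and *Pphln1* was the HUSH core gene that did not pass the test in any comparison, so the 250 bases before the first listed RefSeq start of these 3 genes are shown side by side. They lie on the plus strand of GRCm38.p6 at chr14:56667998-56668247, chr14:27428584-27428833 and chr15:93398100-93398349, and read 5′ to 3′ with matches to the searched motifs in capitals.
Mphosph8: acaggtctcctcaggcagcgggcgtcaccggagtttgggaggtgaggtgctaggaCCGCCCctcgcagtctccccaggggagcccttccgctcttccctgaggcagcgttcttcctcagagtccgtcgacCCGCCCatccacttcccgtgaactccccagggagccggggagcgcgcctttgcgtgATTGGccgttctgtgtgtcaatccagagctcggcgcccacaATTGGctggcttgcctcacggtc
Tasor: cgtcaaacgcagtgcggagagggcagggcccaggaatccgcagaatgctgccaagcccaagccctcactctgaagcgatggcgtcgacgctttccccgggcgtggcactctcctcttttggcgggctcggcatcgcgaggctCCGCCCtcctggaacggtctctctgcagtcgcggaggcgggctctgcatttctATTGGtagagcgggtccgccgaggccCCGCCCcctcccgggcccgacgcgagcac
Pphln1: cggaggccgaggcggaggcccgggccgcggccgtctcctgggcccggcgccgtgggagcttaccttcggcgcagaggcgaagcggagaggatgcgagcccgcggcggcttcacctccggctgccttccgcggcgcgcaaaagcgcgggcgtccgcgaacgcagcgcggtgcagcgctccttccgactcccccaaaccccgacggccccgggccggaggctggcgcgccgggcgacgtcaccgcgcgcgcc
The capitals mark the GC box GGGCGG or the CCAAT box CCAAT on either strand. The *Mphosph8* window held 2 GC boxes and 2 CCAAT boxes, the *Tasor* window 2 GC boxes and 1 CCAAT box, and the *Pphln1* window neither. Of 32851 mouse promoter windows of this length, 32.7% held a GC box and 33.8% a CCAAT box. Both motifs were also found in the first listed windows of *Morc2a*, *Morc3* and *Resf1*. A link between the motifs and the RNA levels was not tested. Searched as well, and absent from all 3 windows, were CCGGAAG for ETS factors (6.91% of windows), GCATGCGC for NRF1 (2.26%), TGACGTCA (1.55%), CACGTG (6.02%), AAGATGGC for YY1 (1.56%) and TATAAA (12.4%). The windows held 19, 27 and 46 CpG dinucleotides respectively, against a median of 6 over all windows. A second listed start of *Pphln1*, not shown, has 1 match to CCGGAAG in its window. Windows of 9 of the 10 genes were searched, and *Kdm4b* is the other gene.

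In the polyA libraries, *Mphosph8* and *Tasor* rose in both KO clones, *Morc2a* fell in sg5, *Kdm4c* fell in sg6, and the other 6 genes did not pass the test in either clone. With edgeR's quasi-likelihood test and an adjusted p below 0.05, 2 members rose and 1 fell in sg5, and 2 rose and 1 fell in sg6. Over all 15480 genes tested, 13.6% rose and 13.4% fell in sg5, and 16.1% rose and 14.6% fell in sg6. The count in rRNA-depleted libraries was 2 members up in sg5 and 1 in sg6, with 0 down, against 5.64% and 3.56% of the 13303 genes tested that rose and 5.10% and 4.03% that fell. In polyA, counts of 1 and 2 among 10 genes are close to these shares, and the rise in both clones was shared by 10.5% of genes. The rises in the rRNA-depleted libraries, 2 and 1 among 10, stand above their shares. They rest on *Mphosph8* and *Tasor* alone and were not tested as counts. The median log2 fold change of the 10 members was −0.01 in sg5 and −0.04 in sg6 (polyA), beside medians of −0.00 and −0.01 over all genes. Under the study's threshold, which also asks for a log2 fold change beyond 1, 0 members passed in the polyA libraries, where 3.18% of genes rose and 6.96% fell in sg5 and 3.64% and 7.54% in sg6. *Mphosph8* in sg5 was the 1 that passed in the rRNA-depleted libraries, beside 3.04% of genes that rose by that rule in sg5 and 2.16% in sg6.

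**Figure D1:**
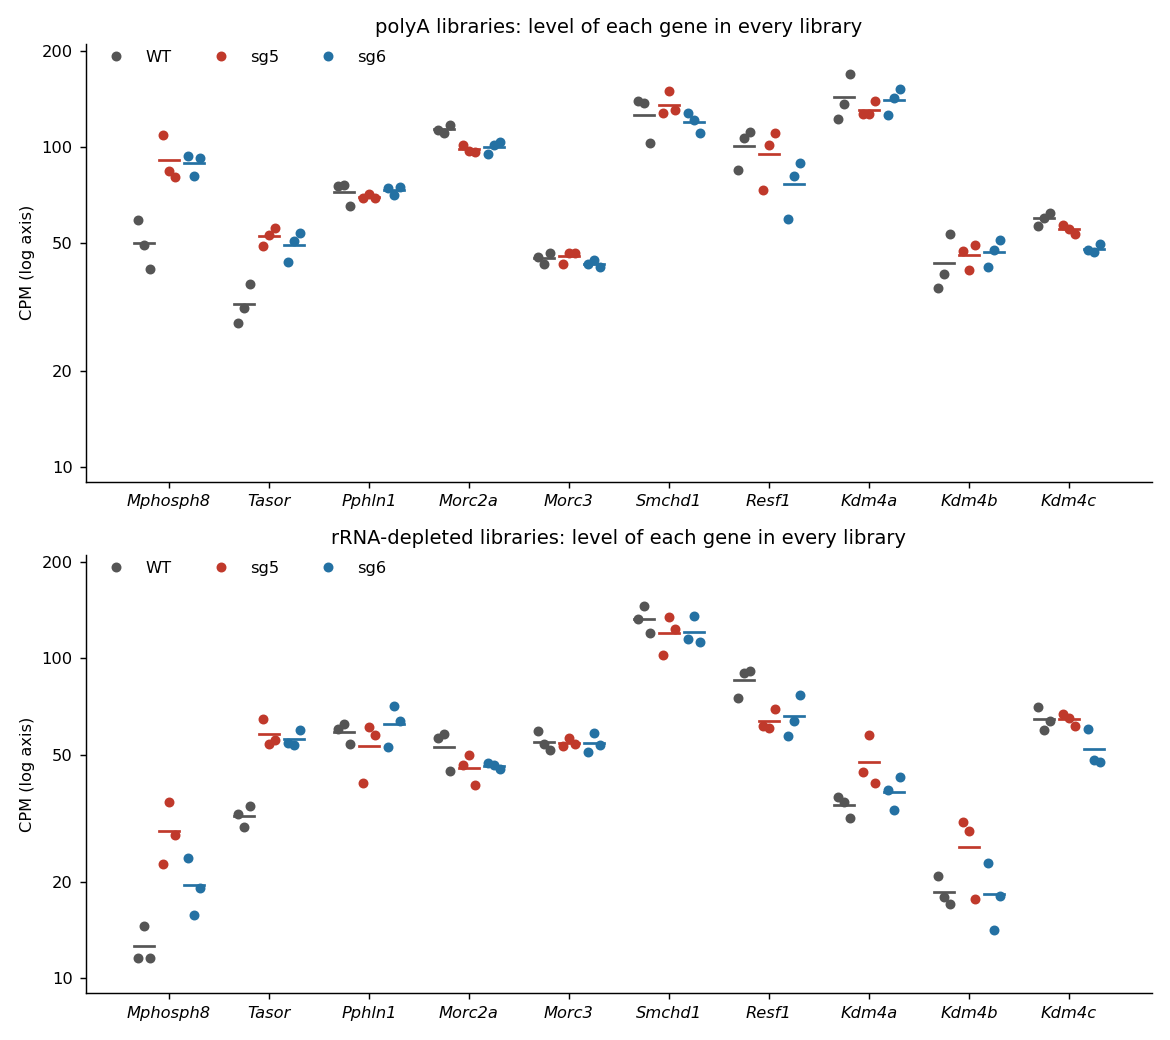
Level of each of the 10 genes in every library, in CPM on a log axis, with polyA libraries above and rRNA-depleted libraries below; points are libraries (n = 3 a line) and bars are means. The *Mphosph8* and *Tasor* points of both KO clones lie above all WT points in both panels, while the lines overlap for *Pphln1*, *Morc3* and *Smchd1*.

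*Mphosph8* lies on chromosome 14 from 56668248 to 56697430 (plus strand). In the polyA libraries its level was 59.1, 49.4 and 41.7 CPM in WT, 109, 84.0 and 80.9 CPM in sg5, and 93.9, 81.3 and 92.3 CPM in sg6. All 6 KO libraries were above all 3 WT libraries. Taken 1 clone at a time, the libraries of sg5 were above those of WT for 21.2% of genes and those of sg6 for 22.4%. The log2 fold change was 0.87 (SE 0.15, adjusted p = 0.00307) in sg5 and 0.83 (SE 0.15, adjusted p = 0.00311) in sg6. The clones differed by 0.04 on the log2 scale, with a 95% interval from −0.30 to 0.37.

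In the rRNA-depleted libraries *Mphosph8* was at 11.6, 14.6 and 11.6 CPM in WT, 22.7, 35.7 and 28.0 CPM in sg5, and 23.8, 15.8 and 19.1 CPM in sg6. The KO libraries again lay above the WT libraries, here beside 21.4% of genes for sg5 and 17.1% for sg6, with the lowest sg6 library at 15.8 CPM and the highest WT library at 14.6 CPM. It rose by 1.19 (SE 0.21, adjusted p = 0.00469) on the log2 scale in sg5. In sg6 the log2 fold change was 0.64 (SE 0.21) and did not pass the test (unadjusted p = 0.00866, adjusted p = 0.160). There 24.3% of genes had an unadjusted p below 0.05. The difference between the clones was 0.56 (SE 0.21, adjusted p = 0.478). These values rest on 265 to 724 counts a library, against 1693 to 19253 in the polyA libraries.

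*Tasor*, which the annotation names *Fam208a*, lies on the same chromosome from 27428834 to 27483555 (plus strand). It was at 28.2, 31.4 and 37.4 CPM in the WT polyA libraries, 49.1, 53.2 and 55.8 CPM in sg5, and 43.7, 50.9 and 54.0 CPM in sg6. No KO library overlapped a WT library. The log2 fold change was 0.70 (SE 0.12, adjusted p = 0.00293) in sg5 and 0.61 (SE 0.12, adjusted p = 0.00480) in sg6. Its level in the rRNA-depleted libraries was 32.5, 29.6 and 34.4 CPM in WT, 64.6, 53.9 and 55.7 CPM in sg5, and 54.4, 53.7 and 59.9 CPM in sg6. WT and KO libraries stood apart here too, with log2 fold changes of 0.85 (SE 0.14, adjusted p = 0.00352) in sg5 and 0.80 (SE 0.14, adjusted p = 0.00637) in sg6. The sg6 call in the rRNA-depleted libraries was lost without WT replicate 2 (adjusted p = 0.0638) or without sg6 replicate 3 (adjusted p = 0.0539). Between the clones *Tasor* differed by 0.09 (interval −0.18 to 0.36) in polyA and by 0.05 (interval −0.25 to 0.36) in rRNA-depleted libraries.

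*Pphln1* (chromosome 15, 93398350 to 93491510, plus strand) was at 72.5 ± 5.97 CPM in WT, 70.0 ± 1.14 CPM in sg5 and 73.6 ± 2.24 CPM in sg6 in the polyA libraries. The 3 lines overlapped, and the log2 fold changes of −0.05 in sg5 and 0.02 in sg6 had intervals from −0.22 to 0.12 and from −0.15 to 0.19. The rRNA-depleted libraries gave −0.15 and 0.09, with wider intervals from −0.53 to 0.23 and from −0.29 to 0.47. The polyA intervals thus do not reach the fold changes measured for *Mphosph8* and *Tasor*.

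**Figure D2:**
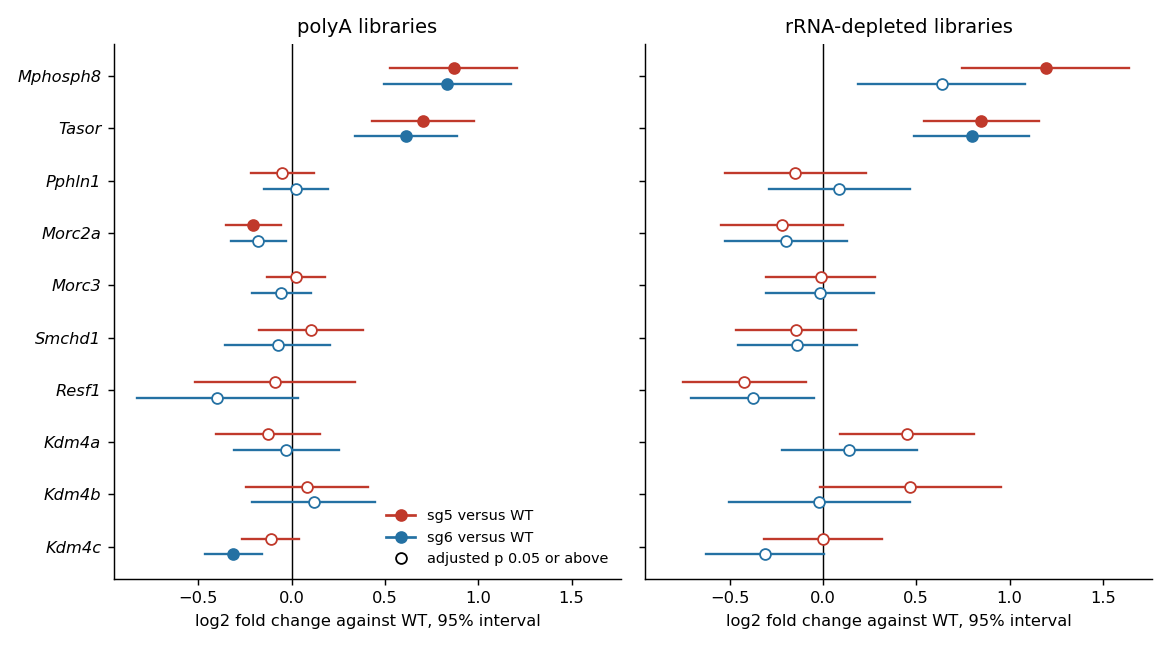
Log2 fold change of each gene in sg5 and sg6 against WT with its 95% interval, for polyA (left) and rRNA-depleted libraries (right); filled points have an adjusted p below 0.05. *Mphosph8* and *Tasor* are the genes to the right of 0 in both clones and both kinds of library, with *Mphosph8* in sg6 not past the test in the rRNA-depleted libraries.

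Both upregulated HUSH genes lie on chromosome 14, whose genes stood higher in the KO lines as a whole. The median log2 fold change of the 535 tested genes of this chromosome was 0.23 in sg5 and 0.22 in sg6 in the polyA libraries, ranks 4 and 5 from the top among 20 chromosomes, and 0.27 and 0.19 in the rRNA-depleted libraries. After subtraction of these medians *Mphosph8* stood at 0.64 and 0.61 (polyA) and 0.92 and 0.45 (rRNA-depleted) in sg5 and sg6, and *Tasor* at 0.47, 0.39, 0.58 and 0.61. Neighbours were taken by order of start along the chromosome, the same number on either side. Of the 20 tested genes next to *Mphosph8*, 5 rose and 1 fell in sg5 and 3 rose and 3 fell in sg6 (polyA). Their median was 0.11 and 0.15. Around *Tasor* 5 rose and 1 fell in sg5 and 4 rose and 1 fell in sg6, with medians of 0.30 and 0.28. Among the 535 genes of the chromosome *Mphosph8* ranked 38 from the top in sg5 and 51 in sg6 (polyA), and *Tasor* 48 and 78. Both genes were above the median of their chromosome and of these neighbours in both clones. They were looked at here because they rose, so that place adds no separate support. The part of the chromosome-wide shift in these values was not tested.

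**Figure D3:**
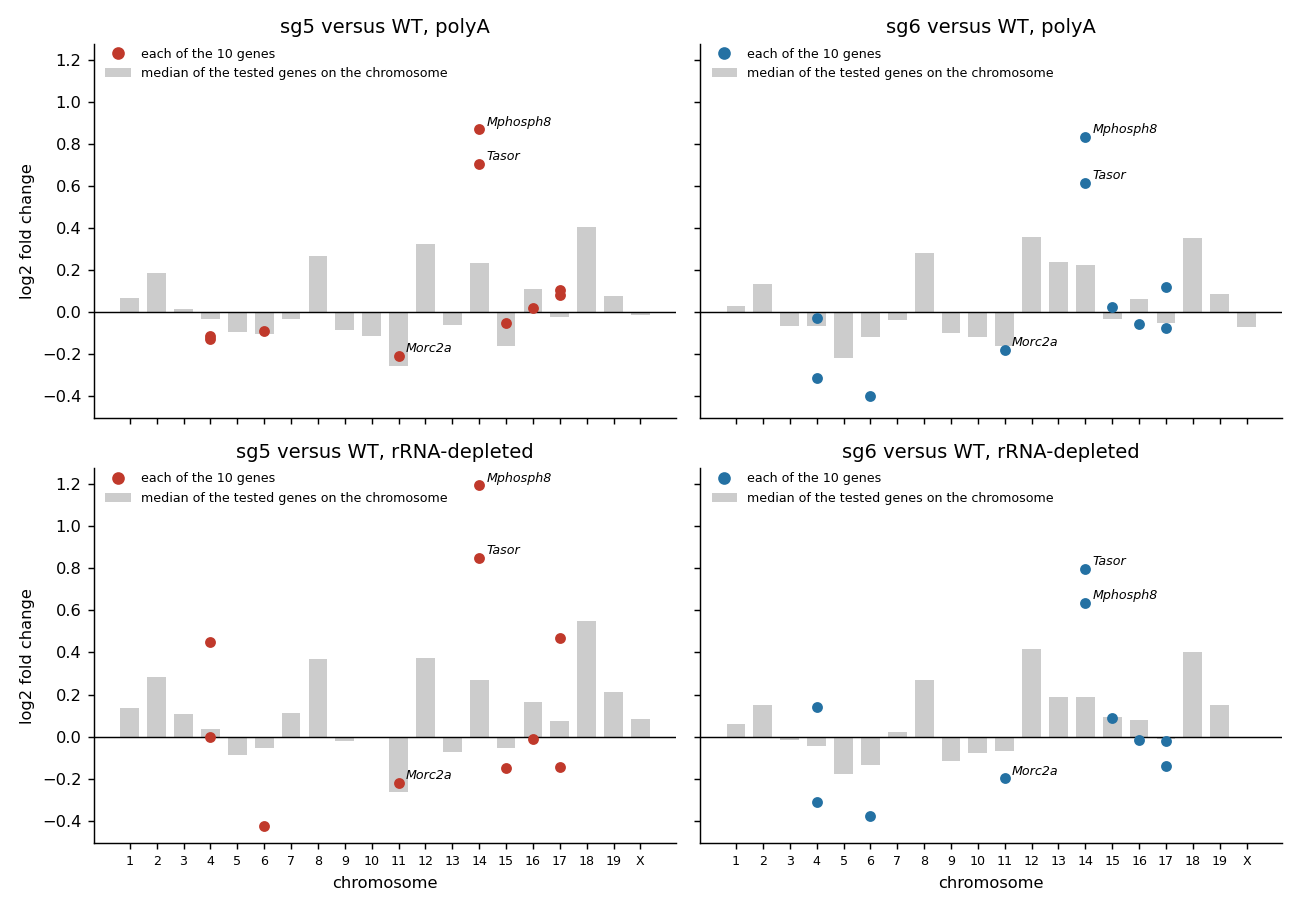
Median log2 fold change of the tested genes on each chromosome (grey bars) with the 10 genes drawn as points over their own chromosome, for sg5 (left) and sg6 (right) against WT in polyA (top) and rRNA-depleted libraries (bottom). *Mphosph8* and *Tasor* lie above the bar of chromosome 14 in all 4 panels, whereas *Morc2a* lies close to the bar of chromosome 11 in the polyA panels.

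Exons of both genes overlap a gene on the other strand, and the strand setting of the counting is not given in the sources used here, so reads in the overlap cannot be assigned to a strand. For *Mphosph8* the overlap is 384 bases of *Gm16973*, which was at 6.28 ± 0.46 CPM in WT, 8.57 ± 0.42 CPM in sg5 and 7.73 ± 0.61 CPM in sg6 (polyA), far below *Mphosph8* itself. It rose by 0.45 (adjusted p = 0.0181) on the log2 scale in sg5, and its log2 fold change in sg6 was 0.30 (adjusted p = 0.0784). In the rRNA-depleted libraries *Gm16973* was at 3.52 ± 0.69 CPM in WT, 6.94 ± 0.72 CPM in sg5 and 5.12 ± 0.76 CPM in sg6, closer to the level of *Mphosph8*, and it rose by 0.97 (adjusted p = 0.0333) in sg5. For *Tasor* the overlap is 1763 bases of *Ccdc66*, with log2 fold changes of 0.29 in sg5 (adjusted p = 0.119) and 0.28 in sg6 (adjusted p = 0.123) in polyA, smaller than those of *Tasor*, and 0.45 (adjusted p = 0.333) and 0.17 (adjusted p = 0.854) in rRNA-depleted libraries. The part of these overlaps in the *Mphosph8* and *Tasor* values was not tested.

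*Morc2a*, the mouse gene for the ATPase that HUSH recruits, lies on chromosome 11 from 3649191 to 3690477 (plus strand). It was at 113, 111 and 117 CPM in the WT polyA libraries, 102, 97.2 and 96.3 CPM in sg5, and 95.4, 102 and 104 CPM in sg6. No KO library reached the lowest WT library. Taken 1 clone at a time, this held for 20.3% of genes in sg5 and 20% in sg6. It fell by 0.21 on the log2 scale (SE 0.07, adjusted p = 0.0437) in sg5, and the log2 fold change in sg6 was −0.18 (SE 0.07, adjusted p = 0.0651). The sg5 call was lost with no filter on low counts (adjusted p = 0.0920), with sg5 and WT fitted alone (adjusted p = 0.0860) and in 8 of the 9 fits that each left out 1 library, all but the fit without sg6 replicate 1 (adjusted p up to 0.134). The median over the 1251 tested genes of chromosome 11 was −0.26 in sg5 and −0.16 in sg6, and *Morc2a* stood at 0.05 and −0.02 relative to it, so its direction in sg5 turned with this centring. The lines overlapped in the rRNA-depleted libraries, at 52.9 ± 7.41, 45.5 ± 4.83 and 46.1 ± 1.03 CPM, with log2 fold changes of −0.22 in sg5 (adjusted p = 0.521) and −0.20 in sg6 (adjusted p = 0.693). *Morc2a* shares 483 exonic bases with *Tug1* on the other strand, which was at 212 ± 2.03, 212 ± 16.9 and 194 ± 9.24 CPM in the polyA libraries of WT, sg5 and sg6.

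*Morc3* (chromosome 16, 93832121 to 93876073, plus strand) had the narrowest range of the 10 genes over the 9 libraries of each kind, as the ratio of the highest to the lowest. Its 9 polyA libraries ran from 42.3 to 46.8 CPM and its 9 rRNA-depleted libraries from 50.8 to 59.3 CPM. The log2 fold changes were 0.02 and −0.06 in polyA and −0.01 and −0.02 in rRNA-depleted libraries, and the 4 intervals lay between −0.31 and 0.28.

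*Smchd1* (chromosome 17, 71344489 to 71475343, minus strand) was at 139, 137 and 103 CPM in the WT polyA libraries, 128, 149 and 130.4 CPM in sg5, and 128, 121 and 110.4 CPM in sg6. The lines overlapped, with WT replicate 3 the lowest of the 9 libraries. The log2 fold changes were 0.10 (interval −0.18 to 0.38) in sg5 and −0.08 (interval −0.36 to 0.21) in sg6. The rRNA-depleted libraries gave −0.15 and −0.14, with intervals from −0.47 to 0.18 and from −0.46 to 0.18.

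*Resf1* (chromosome 6, 149309414 to 149335663, plus strand) was lower in the KO lines in the rRNA-depleted libraries without passing the test. Its level there was 75.0, 89.9 and 91.3 CPM in WT, 61.5, 60.4 and 69.2 CPM in sg5, and 57.3, 63.5 and 76.6 CPM in sg6. All sg5 libraries were below all WT libraries, as for 14.9% of genes, while 1 sg6 library overlapped WT. The log2 fold change was −0.42 (SE 0.15, unadjusted p = 0.0158, adjusted p = 0.168) in sg5 and −0.38 (SE 0.15, unadjusted p = 0.0286, adjusted p = 0.307) in sg6. An unadjusted p below 0.05 was reached by 32.4% of genes in sg5 and 24.3% in sg6 of these libraries. In the polyA libraries *Resf1* was at 84.7, 107 and 111 CPM in WT, 73.5, 101 and 111 CPM in sg5, and 59.4, 81.4 and 89.3 CPM in sg6. Replicate 1 was the lowest library of each line, and the lines overlapped, with log2 fold changes of −0.09 in sg5 (adjusted p = 0.771) and −0.40 in sg6 (adjusted p = 0.147). In each pair of libraries with the same replicate number the sg6 library was below the WT and the sg5 library. With the replicate number as a block *Resf1* passed in sg6 against WT (adjusted p = 0.00155, beside 40.1% of genes), and between the clones the log2 difference of 0.31 went from an adjusted p of 0.484 to 0.0209 (beside 9.05% of genes). Deviations from the group means correlated above 0.1 in all 3 same-number pairs of sg5 and sg6, and in 2 of the 3 pairs of WT and sg6.

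Of the demethylase genes, *Kdm4c* (chromosome 4, 74242497 to 74405860, plus strand) was the 1 that passed a test. Its polyA level was 56.9, 60.2 and 62.4 CPM in WT, 57.1, 55.3 and 53.6 CPM in sg5, and 47.6, 47.0 and 49.7 CPM in sg6. The sg6 libraries were below all others, whereas sg5 overlapped WT. It fell by 0.31 on the log2 scale (SE 0.07, adjusted p = 0.00730) in sg6, and the log2 fold change in sg5 was −0.11 (SE 0.07, adjusted p = 0.252). The direct comparison of the clones gave 0.20 (interval 0.05 to 0.35, unadjusted p = 0.0146, adjusted p = 0.150), so a difference between them was not established at this threshold. *Kdm4c* in the rRNA-depleted libraries was at 64.5 ± 5.31 CPM in WT, 64.5 ± 3.02 CPM in sg5 and 52.0 ± 7.20 CPM in sg6, with a log2 fold change of −0.31 (SE 0.15, unadjusted p = 0.0519, adjusted p = 0.404) in sg6 and 0.00 in sg5.

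*Kdm4a* (chromosome 4, 118136957 to 118180043, minus strand) was at 122, 137 and 169.6 CPM in the WT polyA libraries and between 126 and 152 CPM in the 6 KO libraries, with log2 fold changes of −0.13 and −0.03. Its rRNA-depleted level was 36.9, 35.6 and 31.6 CPM in WT, 44.1, 57.5 and 40.9 CPM in sg5, and 38.9, 33.5 and 42.5 CPM in sg6. There the sg5 libraries were above the WT libraries, as for 21.4% of genes. The log2 fold change was 0.45 (SE 0.17, unadjusted p = 0.0177, adjusted p = 0.178) in sg5 and 0.14 (adjusted p = 0.821) in sg6. In sg5 32.4% of genes had an unadjusted p below 0.05. *Kdm4b* (chromosome 17, 56326062 to 56402870, plus strand) overlapped between the lines in both kinds of library. Its level was 43.3 ± 8.93, 45.9 ± 4.21 and 47.0 ± 4.61 CPM in polyA and 18.6 ± 1.99, 25.8 ± 7.04 and 18.4 ± 4.35 CPM in rRNA-depleted libraries of WT, sg5 and sg6. Its largest log2 fold change against WT was 0.47 (SE 0.23, adjusted p = 0.313), in sg5 of the rRNA-depleted libraries.

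In the direct comparison of sg5 with sg6, 0 of the 10 members passed an adjusted p of 0.05 in either kind of library without the replicate block, against 4.79% of genes in polyA and 1.57% in rRNA-depleted libraries. At an unadjusted p below 0.05 the count was 1 in polyA, for *Kdm4c*, beside 17% of genes, and 2 in rRNA-depleted libraries, for *Mphosph8* and *Kdm4b*, beside 13.5%. DESeq2 called 1 member in polyA, again *Kdm4c* (adjusted p = 0.0278), and 0 in rRNA-depleted libraries, beside 9.3% and 2.41% of genes.

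The response of each gene was also compared between the 2 kinds of library. According to the paper, RNA extraction, library preparation and sequencing were done at MSKCC for polyA and by Novogene for rRNA depletion. The counting tools differed as well, so RNA selection, site and counting cannot be told apart. In a joint fit of all 18 libraries, 0 members had a clone effect that differed between the kinds, beside 0.436% of 14686 genes for sg5 and 0.157% for sg6. At an unadjusted p below 0.05 the counts were 1 and 0, beside 9.71% and 4.26% of genes. The member counted was *Kdm4a* in sg5, whose log2 fold change was 0.55 higher in rRNA-depleted than in polyA libraries (interval 0.16 to 0.95, adjusted p = 0.315). For *Mphosph8* the difference was 0.30 (interval −0.24 to 0.84) in sg5 and −0.20 (interval −0.74 to 0.34) in sg6, and for *Tasor* it was 0.12 (interval −0.26 to 0.50) and 0.19 (interval −0.19 to 0.57).

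Per transcript length, *Kdm4a* had the highest and *Tasor* the lowest level of the 10 genes in WT polyA libraries, at 30.7 ± 5.19 and 4.26 ± 0.62 CPM per kb of the longest coding transcript. Next below *Kdm4a* came *Pphln1*, *Morc2a*, *Smchd1*, *Mphosph8*, *Resf1* and *Kdm4c*, from 20.3 ± 1.67 to 14.3 ± 0.66, and each of these overlapped its neighbour in that order. *Morc3* and *Kdm4b* followed at 10.7 ± 0.43 and 9.46 ± 1.95 and overlapped each other. With the change in the KO lines, *Mphosph8* stood highest per length in both, at 31.1 ± 5.30 in sg5 and 30.3 ± 2.34 in sg6, from 17.0 ± 2.97 in WT, ahead of *Kdm4a* by less than the SD of *Mphosph8*, while *Tasor* was still the lowest at 6.94 ± 0.45 and 6.53 ± 0.70. In the rRNA-depleted libraries of WT, *Smchd1* was highest at 18.9 ± 1.82, and *Mphosph8*, *Tasor* and *Kdm4b* were the 3 lowest at 4.28 ± 0.59, 4.24 ± 0.32 and 4.07 ± 0.44 and overlapped. With the length of all annotated exons in place of the coding transcript, *Kdm4a* and *Tasor* kept their places in polyA, but *Smchd1* moved from 4 to 9 in the order there and from 1 to 6 in the rRNA-depleted libraries.

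**Figure D4:**
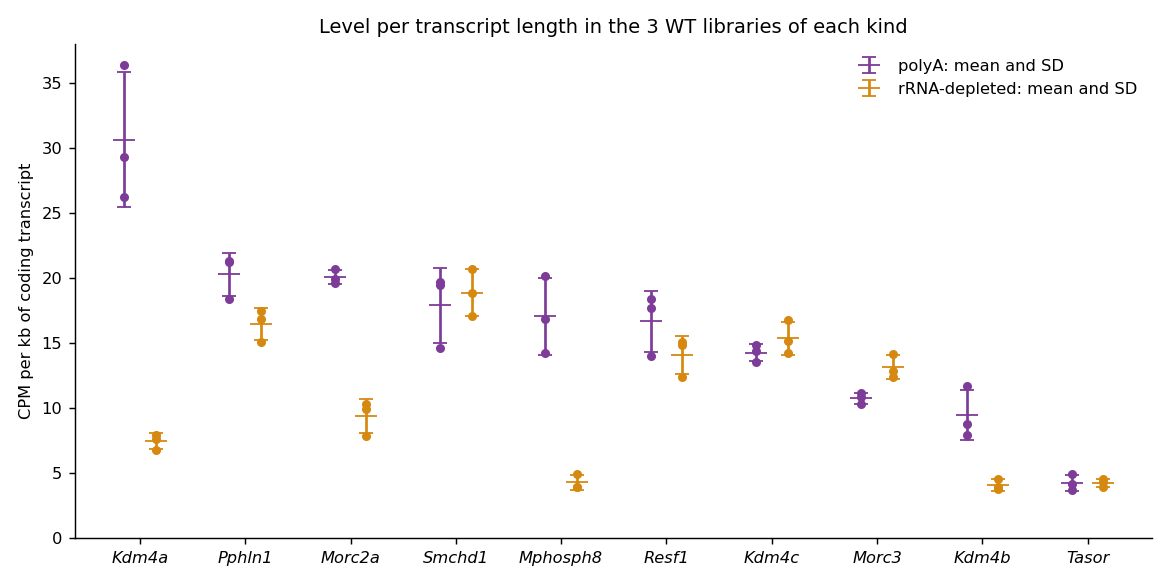
CPM per kb of the longest annotated coding transcript in the 3 WT libraries of each kind (points, with mean and SD), ordered by the polyA mean. *Kdm4a* is highest and *Tasor* lowest in polyA, and *Kdm4a* and *Mphosph8* show the widest gaps between the kinds.

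The kinds of library gave different WT levels for some of the genes. The mean CPM of *Kdm4a* was 4.12 times as high in polyA as in rRNA-depleted libraries, that of *Mphosph8* 3.98 times, *Kdm4b* 2.32 times and *Morc2a* 2.15 times. The other 6 genes lay between 0.817 times (*Morc3*) and 1.23 times (*Pphln1*). The tables were made and normalized separately, so these ratios describe the files and were not tested.

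The genes whose polyA levels followed *Mphosph8* most closely over the 9 libraries were *Tomm20*, *Sgpp1*, *Atp6v1a*, *Rnmt* and *Wdr7*, with Pearson r between 0.990 and 0.997 on log2 CPM. They are the highest of 15461 genes compared, so a high r in polyA comes with the choice. Over the 9 rRNA-depleted libraries r was between 0.686 and 0.861. The points share the 3 lines and their libraries, and *Mphosph8* was taken for this comparison because it had the strongest difference between lines of the 10 genes in polyA libraries. In rRNA-depleted libraries *Tasor* had the strongest. *Tomm20* lies on chromosome 8, *Sgpp1* on chromosome 12, *Atp6v1a* on chromosome 16, and *Rnmt* and *Wdr7* on chromosome 18. Chromosomes 18, 12 and 8 had the 3 highest median log2 fold changes in both clones. The part of these shifts in the correlations was not tested.

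Of 13 listed partners and paralogs of the members and of *Atrx*, 10 were tested in the polyA libraries. *Atf7ip*, whose product stabilises SETDB1, and *Irf2bp2* rose in both clones, where 10.5% of genes rose in both. *Atf7ip* was at 61.5, 63.9 and 69.0 CPM in WT, 84.2, 102 and 111 CPM in sg5, and 73.9, 88.0 and 94.9 CPM in sg6, with the KO libraries above the WT libraries and log2 fold changes of 0.61 in sg5 (adjusted p = 0.00636) and 0.40 in sg6 (adjusted p = 0.0356). The sg6 call of *Atf7ip* was lost in 5 of the 9 fits without 1 library (adjusted p up to 0.109): those without WT replicate 1 or 2, sg5 replicate 2, or sg6 replicate 2 or 3. *Irf2bp2* was at 72.3 ± 8.66 CPM in WT, 106 ± 3.49 CPM in sg5 and 108 ± 6.32 CPM in sg6, with log2 fold changes of 0.55 in sg5 (adjusted p = 0.00293) and 0.58 in sg6 (adjusted p = 0.00186). It lies on chromosome 8, whose median was 0.27 in sg5 and 0.28 in sg6, and relative to that median *Irf2bp2* stood at 0.29 and 0.30. Of the 17 tested genes next to it in order of start, a set cut short on 1 side by the end of the chromosome, 9 rose in sg5 and 8 in sg6. None fell, and the medians were 0.49 and 0.39. The part of this shift in the *Irf2bp2* values was not tested. In sg6 another 3 fell, namely *Zfp638*, *Lrif1* and *Morc4*, by 0.30, 0.29 and 0.67 on the log2 scale (adjusted p = 0.0130, 0.0207 and 0.00107). Over all genes tested 14.6% fell in sg6. The *Zfp638* call was lost without sg6 replicate 2 (adjusted p = 0.0522), and that of *Lrif1* without WT replicate 3 or sg6 replicate 2 or 3 (adjusted p up to 0.0747). In sg5 their log2 fold changes were −0.20, −0.18 and −0.24 and did not pass, whereas DESeq2 called all 3 there, beside 32.9% of genes. *Zfp638* in sg5 also passed in edgeR with the replicate block (adjusted p = 0.0409, beside 37.3% of genes) and without WT replicate 1 (adjusted p = 0.0250).

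*Setdb1*, *Trim28*, *Daxx*, *Tasor2* and *Kdm4d* did not pass in either clone. *Kdm4d* was at or under 0.249 CPM in every polyA library, too low to be read as unchanged, and was not tested in the rRNA-depleted libraries. *Setdb1* stood at 74.6 ± 4.95, 74.1 ± 5.68 and 67.1 ± 4.40 CPM in polyA libraries of WT, sg5 and sg6. The median log2 fold change of the 10 tested partners was −0.11 in sg5 and −0.10 in sg6, beside −0.00 and −0.01 over all genes. *Morc1*, *Morc2b* and *Atf7ip2* were too low to be tested in either kind of library, at or under 0.279 CPM in every library. Of 9 partners tested in the rRNA-depleted libraries, 0 passed with edgeR or with DESeq2. By edgeR 5.64% of genes rose and 5.10% fell there in sg5, and 3.56% rose and 4.03% fell in sg6. At an unadjusted p below 0.05 the edgeR count was 2 in sg5 (*Atf7ip*, *Zfp638*), beside 32.4% of genes, and 1 in sg6 (*Zfp638*), beside 24.3%. *Irf2bp2*, with no passing value there, had log2 fold changes of 0.30 in sg5 and 0.14 in sg6, which turned to −0.07 and −0.13 relative to the median of chromosome 8.

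Among the 5 genes of the imprinted *Snrpn* cluster on chromosome 7, which SMCHD1 is known to help silence, *Ndn* moved in opposite directions in the clones while *Smchd1* RNA did not pass the test. *Ndn*, which encodes the growth suppressor necdin and is expressed from the paternal allele, was at 9.92, 10.2 and 14.1 CPM in the WT polyA libraries, 34.7, 26.5 and 28.3 CPM in sg5, and 3.36, 3.44 and 3.14 CPM in sg6. The 3 lines were fully apart, beside 21.2% of genes above WT in sg5 and 20% below WT in sg6. The log2 fold changes were 1.39 (SE 0.16, adjusted p = 0.000289) in sg5 and −1.78 (SE 0.16, adjusted p = 7.72e-05) in sg6. The rRNA-depleted libraries gave 13.7 ± 1.53, 42.1 ± 6.24 and 4.48 ± 0.23 CPM and log2 fold changes of 1.62 in sg5 (adjusted p = 8.04e-05) and −1.61 in sg6 (adjusted p = 0.000124). *Peg12* was at 3.91 ± 0.58, 5.34 ± 0.60 and 3.40 ± 0.92 CPM and *Mkrn3* at 1.65 ± 0.43, 1.27 ± 0.26 and 1.13 ± 0.26 CPM in the polyA libraries of WT, sg5 and sg6, and neither passed the test. *Snrpn* and *Magel2* were at or under 0.252 CPM in every polyA library and were not tested. *Snrpn* was at 0.210, 0.252 and 0.111 CPM in WT, at or under 0.0247 CPM in sg5 and at 0 CPM in sg6, values near the floor.

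The rRNA-depleted table also counts repeats, so all loci of the L1Md and IAP families were summed. Every locus of a family is included, so the sums do not single out the loci that these factors silence. Reads were found at 30088 of the L1Md loci and at 6196 of the IAP loci. Counts of the 126672 L1Md loci, the L1 families particular to mouse, summed to 1861, 2207 and 2585 CPM in WT, 1772, 1711 and 2001 CPM in sg5, and 1784, 1786 and 1951 CPM in sg6. WT replicates 2 and 3 were above all KO libraries, and WT replicate 1 lay among them. The mean log2 CPM was lower by 0.27 in sg5 and 0.26 in sg6, with an exact two-sided permutation p of 0.2 in each, where 3 against 3 libraries cannot go below 0.1. Without WT replicate 3 the differences were −0.15 and −0.14. The 28733 loci of IAP, an endogenous retrovirus family, summed to 783, 859 and 1022 CPM in WT, 953, 1027 and 949 CPM in sg5, and 939, 906 and 933 CPM in sg6. The lines overlapped, with differences of 0.14 (exact permutation p = 0.3) in sg5 and 0.07 (exact permutation p = 0.7) in sg6. Without WT replicate 1 they were 0.06 and −0.02, and without WT replicate 3 they were 0.25 and 0.17. WT replicate 3 also had the smallest share of its counts in genes, 84.5%, where the other 8 libraries ran up to 89.6%. The counting shared out reads with several alignments, so a sum can include reads of near-identical copies outside the family.

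**Figure D5:**
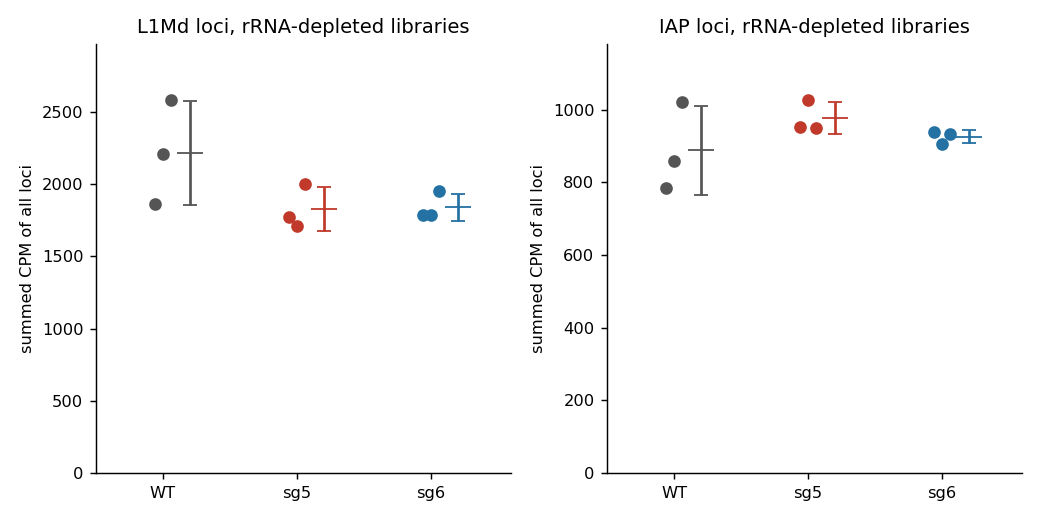
Summed CPM of all L1Md loci (left) and all IAP loci (right) in the rRNA-depleted libraries of WT, sg5 and sg6; points are libraries (n = 3 a line), with mean and SD beside them. The L1Md sums of the KO lines lie between 1711 and 2001 CPM, within or below the WT range, and the IAP sums of the lines overlap.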

How the data were processed

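RNA-seq was analysed from 18 libraries, 9 polyA-selected and 9 rRNA-depleted, with 3 libraries for each of 3 lines, grouped by the sample labels. For polyA, the authors used Rfastp, Salmon (version 0.8.2 in the submitters' processing notes) on mm10 known genes and tximport, and deposited the expected count of each gene as whole numbers, so that rounding changed none. For rRNA-depleted RNA, STAR was the authors' aligner, and they deposited raw counts of reads from TElocal for genes and TE loci. The strand setting of either counting is not given in the sources used here.

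Genes were named from RefSeq by Entrez identifier (24045 of 24100 matched), and positions, exon overlaps and transcript lengths come from the GENCODE annotation of GRCm38, which is mm10. Promoters are RefSeq sequences of GRCm38.p6.

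Differences were tested with edgeR 4.0.16 in R 4.3.3: filterByExpr (minimum count 10, minimum total 15), TMM, and the quasi-likelihood test on the 9 libraries of a kind in 1 fit with 3 groups, with Benjamini-Hochberg adjustment over all 15480 genes (polyA) or 56086 genes and TE loci (rRNA-depleted). Standard errors are the log2 fold change divided by the root of its F. Library kinds were compared in a joint fit of 18 libraries. Sums over repeats were compared with exact permutation tests. The steps were tested on simulated data.

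The genes named are the 10 members, *Atrx*, partner genes past the threshold in both clones, and the imprinted list. Also named are the 5 genes most like the member with the strongest difference over lines in polyA. Genes whose exons overlap those of a member with a call were named as well. Partner genes past the threshold in 1 clone, and single markers, were named after their values were seen. The members and lists were chosen with earlier results of these data known. Alternatives were DESeq2 1.42.0, median-of-ratios size factors, no filter or a minimum of 10 counts in every library, 2 groups alone, a replicate block, thinned counts, genes alone, a stricter threshold, centring on chromosome medians, and each library left out. They were also run, after the data were seen, for the named partners and *Ndn*.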

Additional observations from a re-analysis of the deposited data

Results flagged for a closer look

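*Ndn* differed between the clones. The direct comparison of sg5 with sg6 gave a log2 fold change of 3.17 (SE 0.17, adjusted p = 1.36e-05, edgeR) in polyA and 3.23 (SE 0.18, adjusted p = 5.94e-07) in rRNA-depleted libraries, and all 3 sg5 libraries were above and all 3 sg6 libraries below all WT libraries in both kinds. Every alternative tried kept the call, with log2 fold changes from 3.05 to 3.25 in polyA and from 3.10 to 3.32 in rRNA-depleted libraries. Each clone is 1 line, so a difference by guide and a difference by clone cannot be told apart.

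*Morc4*, a paralog of the MORC genes, also differed between the clones in polyA libraries, by 0.43 on the log2 scale (SE 0.10, adjusted p = 0.0409). It was at 20.3 ± 1.01 CPM in WT, 17.1 ± 1.62 CPM in sg5 and 12.7 ± 0.66 CPM in sg6 (mean ± SD, n = 3). The adjusted p ran from 0.000902 to 0.163 over 16 alternatives and passed in 7 of them. It was above the threshold without WT replicate 2, sg5 replicate 2 or 3, or any 1 sg6 library, with no filter on low counts, with the 2 clones fitted alone, and with thinned counts. In the rRNA-depleted libraries the difference was −0.00 (interval −0.70 to 0.69). None of the 10 members differed between the clones at an adjusted p below 0.05, beside 4.79% of genes in polyA and 1.57% in rRNA-depleted libraries.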

How the results depend on the processing

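Of 9 calls of a member in a comparison, 7 passed in every alternative with a test. These were *Mphosph8* and *Tasor* in both clones in polyA and in sg5 in rRNA-depleted libraries, and *Kdm4c* in sg6. The exceptions were *Morc2a* in sg5 (polyA) and *Tasor* in sg6 (rRNA-depleted), both described above. *Mphosph8* in sg6 of the rRNA-depleted libraries passed in none of 17 alternatives (adjusted p from 0.0788 to 0.585). Of 51 comparisons that were not called, 4 passed in some alternative: *Morc2a* in sg6 in polyA (DESeq2, adjusted p = 0.00804, and at least 10 counts, adjusted p = 0.0388), *Kdm4c* between the clones (DESeq2), and *Resf1* in sg6 and between the clones (replicate block). In 25 of the 51 the sign of the log2 fold change turned under some alternative, and the largest of these was 0.22 in size.

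With a log2 fold change beyond 1 required, the count of members fell from 3 to 0 in both polyA comparisons with WT, from 2 to 1 in sg5 and from 1 to 0 in sg6 of the rRNA-depleted libraries. Between the clones in polyA it went from 0 to 1 with DESeq2. Leaving out 1 library at a time gave 2 to 3 members for sg5 and 3 to 3 for sg6 in polyA, 2 to 2 and 0 to 1 in rRNA-depleted libraries, and 0 between clones and between kinds. *Morc2a* in sg5 moved to 0.049 when centred on its chromosome. The IAP difference in sg6 turned to −0.043 when scaled by library totals, with a permutation p of 0.9, and ran from −0.018 to 0.17 without 1 library, the lowest value being without WT replicate 1. Over the same fits the IAP difference in sg5 ran from 0.057 to 0.25, and the L1Md difference from −0.389 to −0.152 in sg5 and from −0.377 to −0.141 in sg6, with the largest without WT replicate 1 and the smallest without WT replicate 3. The causes were not tested.

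The libraries of different lines share a replicate number, and no label ties the numbers to a culture or day. Of 9 same-number pairs, 7 in polyA and 4 in rRNA-depleted libraries had deviations from the group means that correlated above 0.1 (lowest 0.03 and 0.06), and not every library correlated best with its own number. In polyA all 3 pairs of sg5 and sg6 were above 0.1, and the block moved the genes called between these clones from 741 to 1401. With the replicate block, 1 member passed between the clones in polyA where 0 had passed, which was *Resf1* (adjusted p = 0.0209), and *Resf1* passed in sg6 (adjusted p = 0.00155). No other call of a member changed with the block, and of the named partners *Zfp638* in sg5 passed (adjusted p = 0.0409). In rRNA-depleted libraries *Mphosph8* had 265 counts and *Kdm4b* 381 in their lowest libraries. Sums and counts carry counting error and the spread of 3 libraries only.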
